A study of Drosophila melanogaster with 3 samples.

Results

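MicroRNA (miRNA) gene loci of Drosophila melanogaster were examined in chromatin recovered with a GFP-tagged endosomal protein. Members were the genes whose transcripts have the biotype miRNA or pre_miRNA in the Ensembl BDGP6 annotation, on the 7 major chromosome arms of the dm6 (Release 6) genome. The annotation holds 262 such hairpin genes, of which 2 lie on another scaffold and were left out. The other 260 hairpins, with 481 annotated mature products, formed 206 loci when copies within 2000 bp were taken as 1 locus. Among all 17796 annotated genes of these arms they are a small set, and 26 of the loci hold more than 1 hairpin, up to 8. The chromatin came from whole prepupae of mixed sex, labelled 24 hours, of the transgenic strain CG9139-GFP, in which GFP is fused to the C-terminus of CG9139. CG9139, also named Rabex-5, activates the GTPase Rab5 on endosomes. Anti-GFP immunoprecipitates of 3 biological replicates formed the only group, all from 1 line, so no comparison between conditions was possible and no chromatin lacking the tagged protein was analysed here. Whole animals mix all tissues, and no expression was measured that could check the tissue or the activity of a locus.

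A miRNA gene is transcribed as a long primary transcript whose hairpin is cut out by Drosha and its partner Pasha. Dicer-1 then trims the hairpin to a duplex, and 1 strand is loaded into AGO1, which finds target mRNAs through the seed of the miRNA, its bases 2 to 8. Some fly miRNAs have a primary transcript of their own. Others lie in an intron or exon of a host gene, here a gene whose annotated transcript covers the hairpin on the same strand. They can share the promoter of that host. The start of the primary transcript can therefore lie far from the hairpin. In the prepupa, pulses of the steroid ecdysone drive metamorphosis, and let-7, mir-100 and mir-125, which are cut from a single primary transcript, are among the miRNAs known to depend on this hormone.

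The mature products below are shown for 2 reasons: mir-276a and mir-4962 had the strongest peaks within 1000 bp of any miRNA locus, and mir-279, mir-996, mir-92a and mir-92b show which miRNAs of bound loci share a seed. The muscle miRNA miR-1 is added as a widely conserved one, with a weak peak. They were read from the RefSeq Release 6 assembly at the Ensembl coordinates, 5′ to 3′, with the seed in capitals.
miR-276a-3p: uAGGAACUucauaccgugcucu
miR-279-3p: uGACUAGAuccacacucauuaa
miR-996-3p: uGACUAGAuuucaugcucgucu
miR-92a-3p: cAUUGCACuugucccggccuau
miR-92b-3p: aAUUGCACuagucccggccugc
miR-1-3p: uGGAAUGUaaagaaguauggag
miR-4962-5p: uUUCCCUCucucuguuuacauuga
miR-4962-3p: gACGAUGUagagagugagggaga
miR-279 and miR-996, from hairpins of 1 locus, have the same seed, and so do miR-92a and miR-92b. The genomic stretch at mir-276a, chr3L:10365072-10365325 on the plus strand, is shown because it joins the strongest summit at any miRNA locus (its base 1) to the hairpin (bases 157 to 254). The stretch at mir-4962, chrX:3777367-3777505 on the plus strand, is shown because the summit (its base 51) lay inside the hairpin (bases 16 to 139). Capitals mark the annotated mature products in both.
mir-276a: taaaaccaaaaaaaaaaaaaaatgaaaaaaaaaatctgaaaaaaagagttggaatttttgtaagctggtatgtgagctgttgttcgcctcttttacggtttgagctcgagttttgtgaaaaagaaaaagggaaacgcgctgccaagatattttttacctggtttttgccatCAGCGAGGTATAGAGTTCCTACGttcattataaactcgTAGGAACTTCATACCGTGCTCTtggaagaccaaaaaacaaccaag
mir-4962: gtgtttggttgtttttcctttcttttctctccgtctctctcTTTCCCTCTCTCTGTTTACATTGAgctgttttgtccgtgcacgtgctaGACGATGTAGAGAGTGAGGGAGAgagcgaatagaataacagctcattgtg
The mir-276a stretch is rich in adenine just downstream of the summit. In mir-4962 the summit fell in the 5p product, within a tract of alternating C and T.

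Most miRNA loci had no reproducible peak nearby. The reproducible peaks are the 4934 regions that the authors kept after thresholding by the irreproducible discovery rate (IDR), which compares the ranks of regions between replicates. The relaxed lists that fed this step hold 30000 candidate regions per replicate and for the reads of all replicates pooled, background included. An IDR summit lay within 1000 bp of 19 of 206 miRNA loci (9.22%, exact 95% interval 5.64 to 14.0), from 21 peaks, or 0.426% of all IDR peaks. Under the same rule, 46 of 280 loci of tRNA, snoRNA and snRNA genes had one (16.4%). A pooled candidate summit lay within 1000 bp of 75 of 206 miRNA loci (36.4%, interval 29.8 to 43.4), against 155 of 280 of these other short RNA loci (55.4%). The intervals are Clopper-Pearson intervals and cover counting error only; no test of these differences was run. The loci of the other short RNAs were also longer, with a median span of 149.5 bp, against 97 bp for miRNA loci. Of all known bases on the arms, 6.18% lay within 1000 bp of an IDR summit and 29.5% within 1000 bp of a pooled candidate summit. These base shares count positions and not loci of some width, so they are a rough background.

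**Figure D1:**
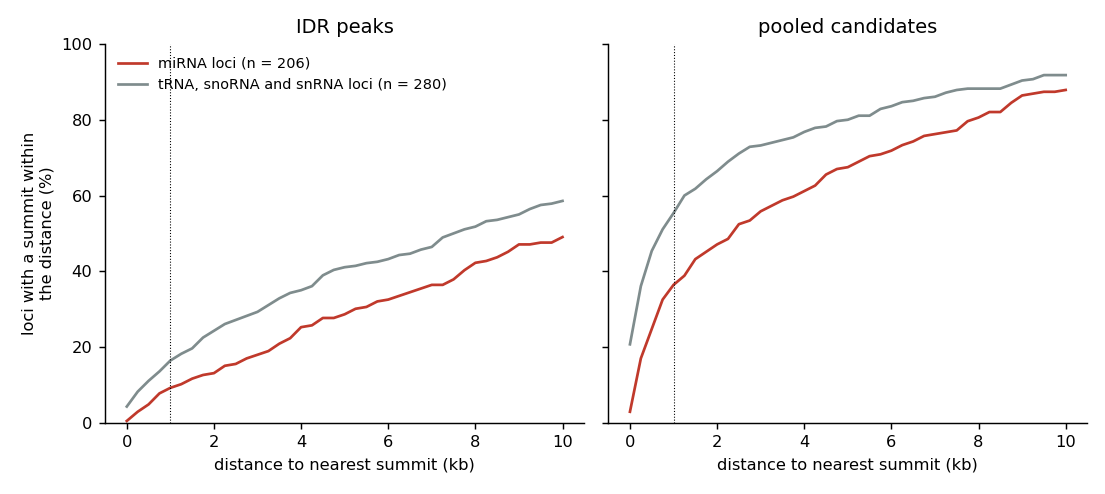
Share of miRNA loci (n = 206) and of tRNA, snoRNA and snRNA loci (n = 280) with a summit within a given distance in kb, for IDR peaks (left) and pooled candidates (right); the dotted line marks 1 kb. The miRNA curve lies below the other curve at each plotted distance, with 49.0% of miRNA loci and 58.6% of the others within 10 kb of an IDR summit.

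The gap between both kinds of locus was widest, as a ratio, at the gene itself. An IDR summit lay inside 1 of 206 miRNA loci (0.485%) and inside 12 of 280 loci of the other short RNAs (4.29%), and pooled candidate summits lay inside 6 and 58 of them (2.91% and 20.7%). The median miRNA locus was 10594 bp from the nearest IDR summit and 2321 bp from the nearest pooled candidate. A total of 85 miRNA loci (41.3%) had no candidate within 1000 bp in the pooled list or in any replicate. In single replicates, candidates lay near 83, 75 and 76 loci in replicates 1, 2 and 3, and near 41 loci in all 3. Among the 4934 strongest candidates of each replicate, summits lay near 21, 22 and 15 loci, and near 10 loci in all 3. The weaker recovery in replicate 3 was thus seen among the strongest candidates and not among all candidates.

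Peaks at miRNA loci were of ordinary strength for this data set, with a few above it. The deposited files hold no read counts, so the depth behind each value is unknown, and the signal is the authors' own enrichment value per region. Pooled signal at the 21 peaks was between 112 and 593, with a median of 198, against a median of 168 over all IDR peaks, and 14 of the 21 lay above that median. For replicates, a relative signal is given: the signal of the overlapping candidate in a replicate divided by the median signal of that replicate over the IDR peaks it lists. The mean relative signal of the 21 peaks was between 0.607 and 3.18, with a median of 1.11, against 0.978 over all IDR peaks, of which 5% exceed 3.07. A candidate of all 3 replicates overlapped 20 of the 21 peaks. Against the 4934 strongest candidates of each replicate, 11 of the 19 bound loci had a peak in all 3 replicates, and 8 had one in 2 replicates at most. When 1 replicate was left out, mir-92a and mir-9388 were lost in every case, and mir-1, mir-282, mir-4949, mir-92b, mir-4955 and mir-9374 in 2 of the 3 cases. The IDR list is the top of the pooled list of these same replicates, so this recurrence is in part built in.

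**Figure D2:**
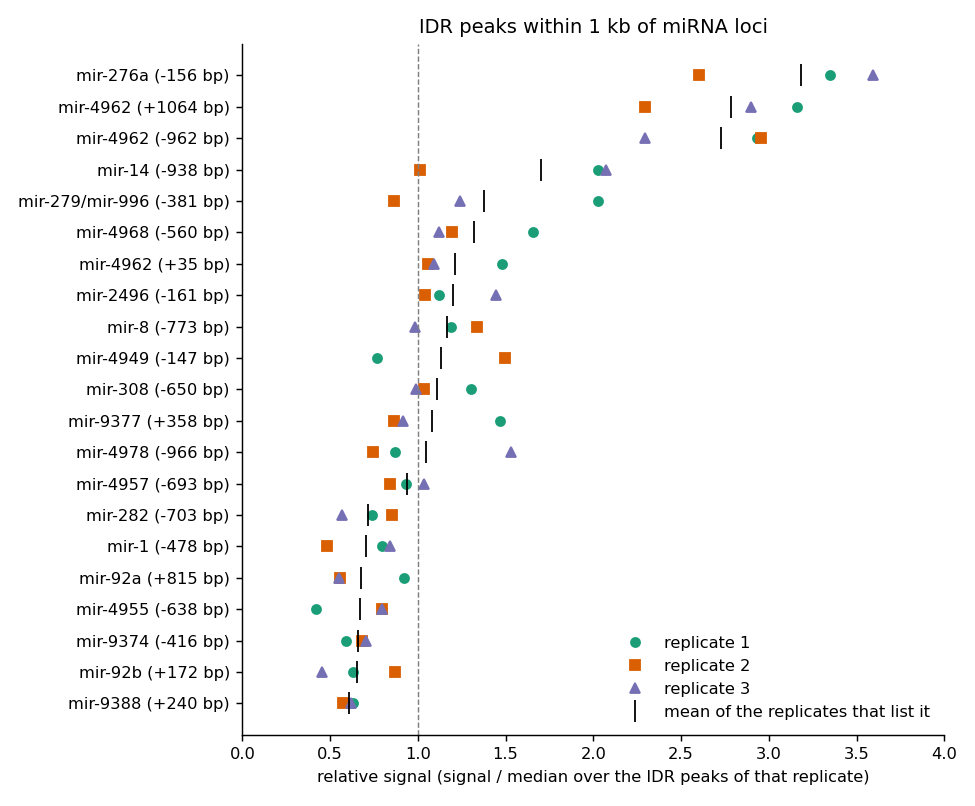
Relative signal (signal divided by the replicate's median over IDR peaks, no unit) of the 21 IDR peaks within 1 kb of miRNA loci, with 1 point for each replicate and a bar for the mean; the label gives the summit's position from the hairpin's 5′ end. The peak at mir-276a and the outer pair at mir-4962 stand above 2 in every replicate, and the dashed line at 1 is the typical IDR peak.

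The strongest recovery was at mir-276a, a miRNA with roles in olfactory memory. Its peak at chr3L:10364963-10365286 ranked 211 of 4934 with a pooled signal of 593, and the summit lay 156 bp upstream of the hairpin, in an exon of the host lncRNA:CR46006. RefSeq gives this host the synonym pri-mir-276b_mir-276a, although the annotation places the mir-276b hairpin in the neighbouring lncRNA:CR46004. The relative signal was 3.35, 2.60 and 3.59 in replicates 1, 2 and 3 (mean 3.18 ± 0.52, SD, n = 3). All 3 replicates placed it well above the typical IDR peak. This summit lay 1053 bp downstream of the nearest annotated transcription start site (TSS) of the host, and the nearest protein-coding TSS, that of CG12362, was 47746 bp away. Another IDR peak, at chr3L:10363733-10364162, had its summit 71 bp upstream of a host TSS and 1280 bp from the hairpin. Its pooled signal was 222 and its relative signal 0.911, 1.84 and 1.31 (mean 1.36 ± 0.47, SD, n = 3), so the peak beside the hairpin was the stronger of the pair in each replicate. The other copy, mir-276b, has the same seed on both arms. Its nearest IDR summit lay 3775 bp away, and its strongest nearby candidate had a pooled signal of 39.3.

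The locus with the most peaks was mir-4962, a hairpin in an intron of Tlk, which encodes a Tousled-like kinase that acts in chromatin assembly. It held 3 IDR peaks. The upstream peak, chrX:3776320-3776593, had a pooled signal of 499 and a summit 361 bp downstream of a Tlk TSS, with a relative signal of 2.93, 2.95 and 2.29 (mean 2.73 ± 0.37, SD, n = 3). The middle peak, chrX:3777202-3777631, was the only one of the 21 with its summit inside a hairpin, 35 bp from its 5′ end; its pooled signal was 235 and its relative signal 1.48, 1.06 and 1.09 (mean 1.21 ± 0.23, SD, n = 3). The downstream peak, chrX:3778319-3778570, had a pooled signal of 531 with its summit 941 bp past the hairpin, and a relative signal of 3.16, 2.29 and 2.90 (mean 2.78 ± 0.44, SD, n = 3). In every replicate both outer peaks exceeded the one over the hairpin.

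**Figure D3:**
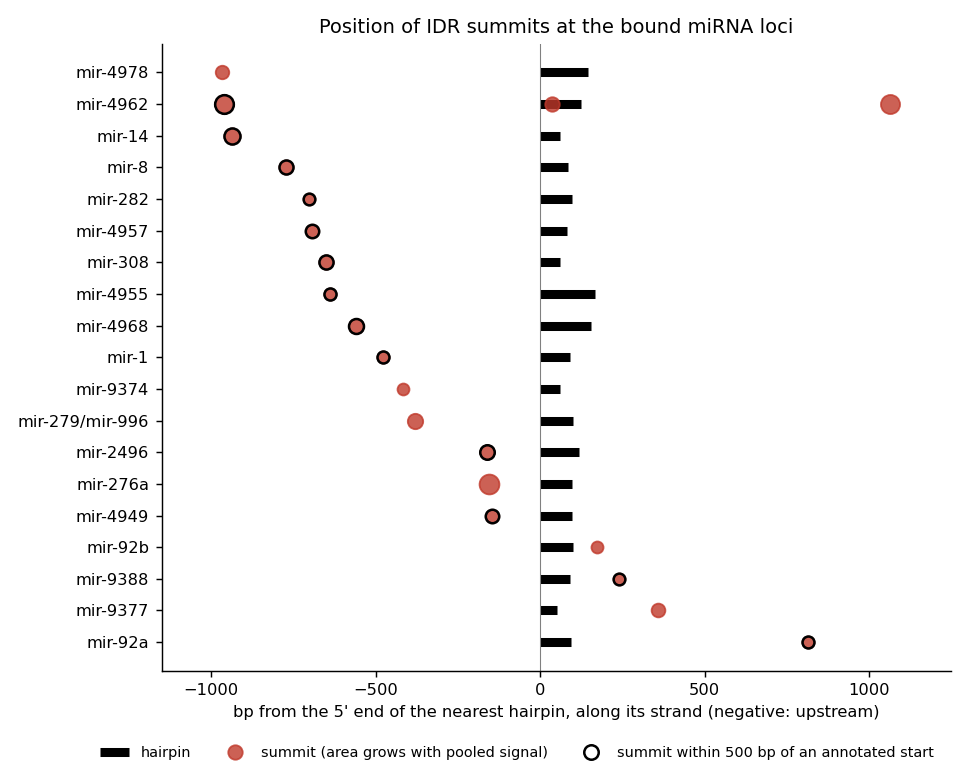
Position of the 21 IDR summits at the 19 bound miRNA loci, in bp from the 5′ end of the nearest hairpin along its strand; black bars are hairpins, circle area grows with pooled signal, and a black rim marks a summit within 500 bp of an annotated TSS of any gene. Most circles lie left of the hairpins, and only the middle summit of mir-4962 falls on one.

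Of the 21 summits, 15 lay upstream of the hairpin (71.4%, exact interval 47.8 to 88.7), 5 downstream and 1 inside. The median position was 416 bp upstream of the hairpin's 5′ end. Within 500 bp of a protein-coding TSS lay 8 summits (38.1%, interval 18.1 to 61.6). Another 5 lay within 500 bp of a non-coding RNA TSS only, and 8 were farther from any annotated TSS. Distance to a TSS was not counted over all IDR peaks, so these shares cannot be compared with IDR peaks in general. The outermost summits that counted were those of mir-4978, at 966 bp, and mir-4962, at 962 bp. The nearest loci beyond the limit were mir-87 at 1152 bp, mir-9379 at 1224 bp and mir-967 at 1265 bp.

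Several conserved miRNAs with transcripts of their own carried a peak at or near the start of that transcript. For mir-14, which limits cell death and fat storage and tunes the ecdysone receptor, the summit of the peak at chr2R:9552767-9552908 lay 20 bp upstream of the TSS of lncRNA:CR43651, its primary transcript, and 938 bp from the hairpin. Its pooled signal was 322 and its relative signal 2.03, 1.01 and 2.07 (mean 1.70 ± 0.60, SD, n = 3), with replicate 2 at the level of a typical IDR peak and the other replicates above it. For mir-8, a miR-200 family member that promotes body growth through the fat body, the summit of chr2R:16830444-16830873 lay 30 bp upstream of the TSS of lncRNA:CR43650, the primary transcript. Its pooled signal was 211 and its relative signal 1.19, 1.33 and 0.981 (mean 1.17 ± 0.18, SD, n = 3), close to the typical level in all 3 replicates. For mir-1, the muscle miRNA, the summit of chr2L:20486748-20487177 lay 478 bp upstream of the hairpin in an exon of the primary transcript, lncRNA:CR45361, and 441 bp downstream of its TSS. Here the pooled signal was only 122 and the relative signal 0.793, 0.483 and 0.842 (mean 0.71 ± 0.19, SD, n = 3), below the typical IDR peak in each replicate. The mir-282 peak, chr3L:3250104-3250533, was as weak, with a pooled signal of 112 and a mean relative signal of 0.72 ± 0.14 (SD, n = 3). The summit of this peak lay 275 bp upstream of the nearest annotated TSS of the host, lncRNA:CR43626. It lay 729 bp from the nearest TSS of a host transcript that covers the hairpin. Stronger signal lay farther upstream, near other TSSs of this host. A pair of overlapping IDR peaks there, chr3L:3248683-3249120 and chr3L:3248914-3249343, had summits 415 and 211 bp upstream of a TSS and pooled signals of 619 and 135. The strongest replicate candidates that overlap this pair had a relative signal of 3.79, 3.05 and 3.02 (mean 3.29 ± 0.43, SD, n = 3) and cannot be split between its peaks.

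The miRNAs mir-279 and mir-996 restrict the formation of carbon dioxide sensing neurons and share the seed shown above. Their cluster was the only 1 of 26 loci with several hairpins to hold an IDR summit within 1000 bp (3.85%, exact interval 0.0973 to 19.6). Of 180 single hairpins, 18 had one (10%, interval 6.04 to 15.3), a share inside the interval of the clusters. For pooled candidates the order was reversed, with 11 of 26 clusters (42.3%) and 64 of 180 single hairpins (35.6%). No test of these differences was run. The IDR peak at mir-279/mir-996, chr3R:29214989-29215418, had its summit 381 bp upstream of mir-279 and a pooled signal of 281. Its relative signal was 2.03, 0.862 and 1.24 (mean 1.38 ± 0.59, SD, n = 3). A far stronger peak stood just beyond the limit, at 1139 bp. At chr3R:29214250-29214610, with its summit 116 bp upstream of the TSS of the primary transcript lncRNA:CR31044, it ranked 29 of all 4934 IDR peaks with a pooled signal of 1202. Its relative signal was 7.70, 4.87 and 6.08 (mean 6.22 ± 1.42, SD, n = 3), the highest mean among the peaks within 500 bp of a miRNA host TSS.

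Most of the other bound loci had their summits at promoters or in introns of protein-coding genes, with mir-92b and mir-2496 as exceptions, and many of their hairpins belong to less conserved miRNAs. The mir-308 hairpin lies in an intron of the ribosomal protein gene RpS23, with its summit 64 bp downstream of the RpS23 TSS, a pooled signal of 217 and a relative signal of 1.30, 1.03 and 0.991 (mean 1.11 ± 0.17, SD, n = 3). For mir-4968, in an intron of Mob2, a gene of the Mob kinase-activator family, the summit was 141 bp upstream of a Mob2 TSS, with a pooled signal of 258 and a mean relative signal of 1.32 ± 0.29 (SD, n = 3). The mir-4949 summit lay 40 bp downstream of the TSS of ATPsynC, which encodes a subunit of the mitochondrial ATP synthase. It was the 1 peak not listed in all replicates, with 0.766 and 1.49 in replicates 1 and 2 and no overlapping candidate in replicate 3. The mir-4955 summit was 119 bp upstream of a TSS of trol, the perlecan gene, and that of mir-4957 lay in Top1, the topoisomerase I gene, which runs antisense to the hairpin. Their mean relative signals were 0.67 ± 0.22 and 0.94 ± 0.10 (SD, n = 3 each). The mir-9377 summit, with a pooled signal of 198, lay in an intron of Tis11, which encodes an RNA-binding protein of mRNA decay, 5041 bp from its TSS. The mir-9374 hairpin lies in the 5′ UTR of Hr39, a nuclear receptor gene of the ecdysone cascade, with the summit 635 bp downstream of the Hr39 TSS and a mean relative signal of 0.66 ± 0.06 (SD, n = 3).

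Both mir-92 hairpins lie in jigr1 and both had weak peaks. The mir-92a summit lay 721 bp downstream of the hairpin and 75 bp downstream of an internal jigr1 TSS, with a pooled signal of 121 and a relative signal of 0.921, 0.556 and 0.550. The mir-92b summit lay 73 bp downstream of its hairpin in the jigr1 3′ UTR, with a pooled signal of 124 and a relative signal of 0.630, 0.872 and 0.454. All of these relative values were under 1. A stronger IDR peak, chr3R:25637562-25637991, had its summit 66 bp upstream of a jigr1 TSS that is a host TSS of both hairpins. This summit lay 8729 bp from mir-92a and 13621 bp from mir-92b. Its pooled signal was 184 and its relative signal 0.937, 0.723 and 1.45 (mean 1.04 ± 0.38, SD, n = 3). The seed of miR-92a and miR-92b is shared with mir-310, mir-311, mir-312 and mir-313, a cluster whose nearest IDR summit lay 2691 bp away. The remaining loci were mir-4978, antisense in an intron of mam, which encodes the Notch coactivator Mastermind (mean 1.05 ± 0.42), mir-2496, 182 bp from the TSS of lncRNA:CR45478 (1.20 ± 0.22), and mir-9388, 301 bp from the TSS of Mes2 (0.61 ± 0.03; SD, n = 3 each). mir-9388 had the lowest mean relative signal of the 19 loci, with little spread between replicates.

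Loci were also counted by the kind of transcript that covers them. Of the 31 loci hosted by non-coding RNAs alone, 6 had an IDR summit within 1000 bp (19.4%, exact 95% interval 7.45 to 37.5), against 9 of 125 loci in protein-coding hosts (7.2%, interval 3.35 to 13.2) and 4 of 50 loci with no host on their strand (8%, interval 2.22 to 19.2). For pooled candidates the counts were 19 of 31, 40 of 125 and 16 of 50. The intervals overlap and no test was run. A host TSS itself lay within 1000 bp of 11 of the 31 loci in non-coding hosts and 36 of the 125 in protein-coding hosts (35.5% and 28.8%), and the median distance to the nearest host TSS was 1795 bp and 2680 bp. The part of this distance in the counts was not tested.

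Measured at the host promoter instead of the hairpin, more miRNA loci had a peak. A transcript covering the hairpin had an IDR summit within 500 bp of its TSS for 43 of 156 hosted loci (27.6%), made up of 35 of 125 with protein-coding hosts and 8 of 31 with non-coding hosts. Of these 43, 29 had no IDR summit within 1000 bp of the locus. Whether these miRNAs are transcribed from the host TSS was not tested. Counted by gene, 38 of 128 protein-coding host genes had an IDR summit no farther than 500 bp from any TSS (29.7%, interval 21.9 to 38.4), against 1834 of all 13968 protein-coding genes (13.1%). Non-coding host genes stood at 8 of 37 (21.6%, interval 9.83 to 38.2), against 236 of 2548 other non-coding RNA genes (9.26%). Host genes of both kinds are longer, and protein-coding hosts have more starts. Protein-coding hosts had a median length of 14094.5 bp and 2 TSSs, against 2164.5 bp and 1 TSS over all protein-coding genes. Non-coding hosts had 6436 bp, against 714 bp over all non-coding RNA genes, with a median of 1 TSS for both. The part of length and TSS number in these shares was not tested.

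Bound host promoters of loci that had no IDR summit within the distance limit included several of known function, here chosen after their values were seen. The summits named here lay between 1265 bp (bun) and 25167 bp (rhea) from the miRNA locus. At bun, a growth regulator that hosts mir-967, the summit nearest to a TSS had a pooled signal of 351 and lay 109 bp upstream of it, and a summit near another bun TSS had 509. At rhea, the talin gene that hosts mir-190, the signal was 331 and the summit 25167 bp from the hairpin. At spi, the EGF receptor ligand gene that hosts 3 hairpins of the mir-2 family, the summit nearest to a TSS had a signal of 230, with relative signals of 1.72, 1.23 and 0.803, and a summit near another spi TSS had 329. The host of mir-275 and mir-305, lncRNA:CR43857, had 196, and E2f1, the cell cycle factor gene that hosts mir-998 and mir-11, had 160. Each of these hosts had an overlapping candidate in all 3 replicates.

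The let-7 complex and bantam missed the limits at both ends while strong peaks stood close by. The IDR summit nearest to the hairpins of mir-100, mir-let7 (let-7) and mir-125 lay 5176 bp away, and the nearest pooled candidate 1491 bp away. The start of their common primary transcript, lncRNA:let7C, had an IDR peak at chr2L:18456096-18456424, whose summit lay 573 bp downstream of the annotated TSS, just past the 500 bp limit. That peak ranked 153 with a pooled signal of 671, and its relative signal was 4.92, 3.17 and 2.47 (mean 3.52 ± 1.26, SD, n = 3), above the typical IDR peak in every replicate. At mir-ban, the growth-promoting miRNA bantam, an IDR summit lay 1473 bp upstream of the hairpin and 1021 bp downstream of the TSS of lncRNA:CR43334, its primary transcript. Its pooled signal was 411 and its relative signal 2.71, 1.78 and 2.02 (mean 2.17 ± 0.48, SD, n = 3).

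A further 56 miRNA loci had pooled candidates within 1000 bp but no IDR summit. Their highest pooled signal was 104. The IDR list is the top of the pooled list, so any such candidate must fall under its weakest peak, at 105. The median of the highest signal at each of the 56 loci was 40.8. Over all 30000 candidates the median was 44.2, but these include the IDR peaks, so the medians are not like for like. Of these 56, 18 had a candidate overlapping in all 3 replicates, 36 in 1 or 2 replicates, and 2 in none. The 10 of highest signal were mir-275/mir-305 (104), mir-2493, mir-2491, mir-4946, mir-4914, mir-4942, mir-bft (mir-263a, 74.9), mir-4959, mir-ban (70.0) and mir-4985 (68.0). For mir-275/mir-305 the relative signal was 0.420, 0.854 and 0.379, and replicate 2 stood alone above the others. For mir-ban it was 0.312, 0.537 and 0.402 at the candidate 443 bp from the hairpin, well below the typical IDR peak throughout.

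**Figure D4:**
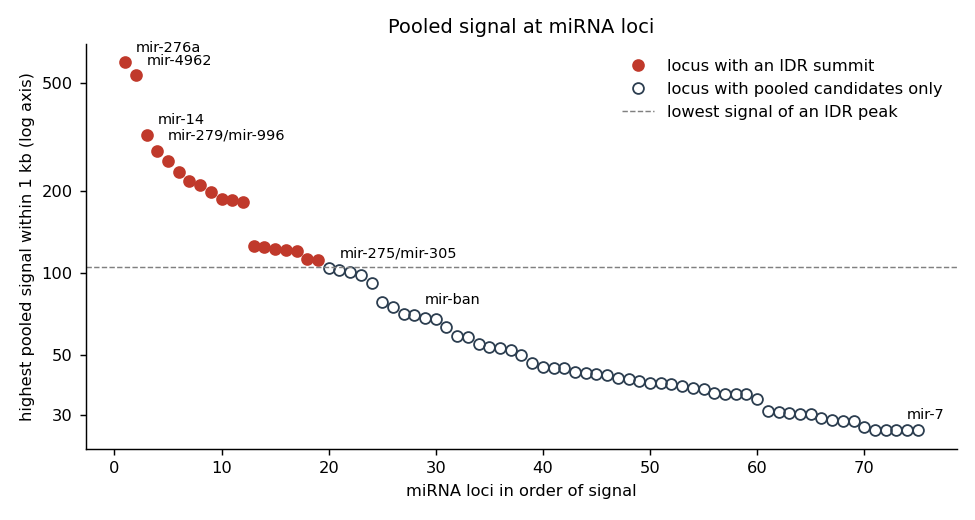
Highest pooled signal within 1 kb of each of the 75 miRNA loci with a pooled candidate, in descending order on a log axis; filled points are the 19 loci with an IDR summit, open points the 56 with pooled candidates only, and the dashed line is the weakest IDR peak. mir-276a and mir-4962 stand apart at the top, and signal declines without a break from the weakest filled points to the open ones.

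Grouped by function, the ecdysone-linked miRNAs had an IDR summit near 2 of 4 loci, mir-14 and mir-8, while the let-7 complex and the locus of mir-277 and mir-34 had none; the median distance to an IDR summit was 3057 bp, against 10594 bp over all miRNA loci. The list for growth and survival had 3 of 11 loci, namely mir-14, mir-8 and mir-308, with a median of 2524 bp. The list for neural and sensory functions had 2 of 8, mir-276a and mir-279/mir-996, with a median of 4051 bp, and without mir-7, mir-9a, mir-124, mir-bft, mir-263b and mir-276b. These lists overlap and are short, and they were chosen with earlier results of these data known. The exact 95% intervals of the shares were 6.76 to 93.2%, 6.02 to 61.0% and 3.19 to 65.1%. Each includes the 9.22% of all miRNA loci. Both Hox cluster loci, mir-10 and mir-iab-8/mir-iab-4, lacked an IDR summit, at a median distance of 74240.5 bp. So did all 14 loci on the short list of mirtrons, hairpins made by splicing without Drosha. Of these listed loci 1, mir-1012, had a pooled candidate within 1000 bp. With 0 of 14, shares up to 23.2% remain possible by the exact 95% interval, and this includes the 9.22% of all miRNA loci. Among seed families, the large mir-2, mir-6, mir-11 and mir-13 family covers 7 loci, of which 1, mir-308, was bound. This count is too small to tell its share from the 9.22% of all miRNA loci.

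The list of machinery genes holds genes of the miRNA pathway and genes of RNA interference, such as AGO2, r2d2 and Dcr-2. An IDR summit lay within 500 bp of a TSS in 5 of its 21 genes (23.8%, exact 95% interval 8.22 to 47.2). The share of all protein-coding genes, 13.1%, lies inside that interval. AGO2 and r2d2 are among the 5, so the share is not one of miRNA genes alone. AGO2, the Argonaute of RNA interference, had a relative signal of 1.36, 1.83 and 1.41 (mean 1.54 ± 0.26, SD, n = 3), above the typical IDR peak in each replicate. For r2d2, the partner of Dicer-2, it was 1.49, 1.12 and 1.68 (mean 1.43 ± 0.29, SD, n = 3), but the summit lay closer to the TSS of Herp, at 103 bp, than to that of r2d2, at 192 bp. AGO1, the Argonaute of miRNAs, was weaker, with 0.559, 0.804 and 0.923 (mean 0.76 ± 0.19, SD, n = 3). Pop2, a deadenylase subunit of the CCR4-NOT complex, had 0.786, 1.09 and 0.463 (mean 0.78 ± 0.31, SD, n = 3). For gw, which encodes the AGO1 partner GW182, only replicates 1 and 2 listed the region, at 1.17 and 0.383. The nuclear genes drosha, pasha and Cbp20 had pooled candidates only, with signals of 103, 56.5 and 69.0. Ars2, Cbp80 and Ranbp21, also of the nuclear steps, had neither an IDR summit nor a pooled candidate. Dcr-1 and loqs had neither as well. The Tailor summit missed the limit, at 540 bp.

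Sequence at the summits was described by 5 motifs, each sought on both strands within 100 bp to each side of the summit. GAGAG, the core recognised by GAGA factor, was in 12 of the 21 windows at miRNA loci (57.1%), against 34.5% of all IDR peaks and 28.5% of pooled candidates. The 12 include the 3 windows of mir-4962, and the windows of mir-276a, mir-1 and mir-282 had none. Matches stood away from the summit in part: within 50 bp of it they were in 5 of 21 windows (23.8%), against 19.3% of all IDR peaks. CACGTG, the E-box core, was in 2 windows, at mir-8 and at the middle peak of mir-4962 (9.52%, against 1.91% of all IDR peaks). ATCGAT was in none of the 21 windows and in 4.58% of all IDR peaks. None held CAGGTA either, which was in 4.13% of all IDR peaks. The same held for AGGTCA, at 3.40%. A match is a description of these windows only, and with 21 windows a single one moves a share by 4.76%.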

How the data were processed

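The authors' anti-GFP ChIP-seq region lists on dm6 were used: 30000 candidates for each of 3 replicates and for pooled reads, and 4934 IDR peaks. Reads were compared with a control alignment, per the deposited notes; neither aligner nor caller nor IDR cut-off is stated in the sources read. The signal in the deposited lists is the authors' enrichment value and scales with depth, which is unknown, so pooled signals are compared only within the pooled list, and replicates by ratios to their own median. Summit positions came from the deposited summit offsets. Chromatin was sheared to 200 to 800 bp, per the labels. Lists on dm3 were not used.

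Loci, hosts and TSSs came from the Ensembl BDGP6 annotation. In it the miRNA biotype is on transcripts and not on genes, so members were found by transcript. All 260 symbols matched RefSeq, whose synonyms gave let-7, bantam and mir-263a; sequence came from the RefSeq Release 6 genome. Overlap meant at least 1 bp. No 2 replicates held a region of equal position and signal. The median signal over IDR peaks used for scaling was 77.0, 50.4 and 58.8 in replicates 1, 2 and 3, which listed 4903, 4916 and 4822 of them. Where several candidates overlapped a peak, the strongest was taken.

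Named were all loci with an IDR summit, the 10 pooled-only loci of highest signal, members of 6 short lists, and their hosts. The members and lists were chosen with earlier results of these data known. No significance test was run, since there is 1 group. Alternatives covered distance, merging, overlap, peak strength, motif window and each replicate left out, where IDR peaks were kept if they lay among the strongest candidates of both other replicates. The host-promoter count and its alternatives were chosen after seeing the data. The counting was tested on simulated summits. Python 3.11.15, numpy 2.4.6, pandas 2.3.3, scipy 1.17.1 and matplotlib 3.10.9 were used.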

Additional observations from a re-analysis of the deposited data

How the results depend on the processing

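The count of 19 miRNA loci with an IDR summit was 10 within 500 bp, 6 where the region had to overlap the locus and 12 in peaks above the median signal. It was 27 within 2000 bp, 19 with every hairpin counted singly and 18 with copies within 10 kb merged, all within 1.5 times of 19. Leaving out 1 replicate gave 12 to 14 loci, 12 without replicate 2. The loci mir-92a and mir-9388 were lost whichever replicate was left out, while the loci of mir-276a, mir-4962, mir-14, mir-8, mir-279/mir-996 and mir-308 were kept in all 3; mir-1, mir-282, mir-4949, mir-92b, mir-4955 and mir-9374 were each lost in 2 of 3. The pooled count of 75 was 33 with overlap of the locus and 48 to 55 without 1 replicate, 48 without replicate 1. Loci whose peak recurred in the remaining replicates numbered 18 to 19 for any candidate and 12 to 14 for the strongest candidates, against 18 and 11 in all 3. The median relative signal of 1.11 was 3.74 when divided by the median of all candidates, and 1.05 to 1.15 without 1 replicate. The 5 machinery genes were 3 within 200 bp, 2 in peaks above the median signal and 2 to 3 without 1 replicate. The 43 loci with a bound host TSS were 34 within 200 bp, 52 within 1000 bp and 33 to 34 without 1 replicate. In windows of 50 bp to each side, GAGAG was in 5 windows and CACGTG in 1. The cause of these moves was not tested. No paired analysis was possible because there is 1 group. Depth is unknown, so a locus without a peak is one where none was listed.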
